A study of Arabidopsis thaliana with 4 samples.

Results

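The UGT genes of Arabidopsis thaliana encode UDP-glycosyltransferases, enzymes that move a sugar from a UDP-sugar donor onto a small acceptor molecule. The acceptors include flavonoids and anthocyanins, monolignols and their aldehydes, and the hormones abscisate, salicylate, auxin and cytokinin. Adding a sugar usually makes the acceptor more soluble and changes its activity, storage or transport. Members are numbered by sequence likeness, so UGT72E1 and UGT72E2 belong to number group 72 and subfamily 72E, and many members lie beside each other as tandem duplicates.

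A gene was a member if the platform annotation paired a probe set with exactly 1 gene whose symbol is UGT followed by a digit, and UF3GT, an anthocyanin glycosyltransferase gene, was added. This gave 48 genes, 47 of them with a UGT number, of 13513 probe sets with 1 gene and 22746 probe sets tested. Each member had 1 probe set, and all 48 were matched to a locus of the reference. The numbers ran from group 71 to group 88, in 11 groups. UGT genes that the annotation lists under a different symbol, or on a probe set shared with a second gene, are no members. The annotation gave no gene for 8730 probe sets, so a listed gene that is not named here may still have a probe set, and it was not analysed here.

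Expanded leaves of plants grown in short days were measured on single-colour oligonucleotide arrays. The control was Columbia, the common reference accession, and the other genotype was the jaw-D mutant, in which the microRNA miR319a is overexpressed. As background, jaw-D is a dominant activation-tagged line made in Columbia, with wavy leaves, and miR319a directs the cleavage of several TCP transcription factor transcripts. Each genotype had 2 arrays, no other allele or agent is given, and plant age is not given in the labels. Nothing says that the replicates came from separate plants, and so a p-value here reflects just the scatter of these samples, which could be technical.

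Median signals ran from 74.6 to 77.15 over the 4 arrays. Signals under 16 made up 17.8% and 18.4% of probe sets in Columbia and 22.3% and 21.7% in jaw-D. The GAPDH control's 3' to 5' ratio was 2.06 on jaw-D array 1, against 1.36 to 1.43 on the other arrays. LHCB4.1 and RCA, the 2 named of 8 leaf genes, read at least 7869 on every array. The 3 named of 5 root genes, EXPA18, EXPA7 and PYK10, read at most 46.4, while none of 4 flower genes was named. The 25S rRNA control followed the array number, reading 3146 in Columbia and 2760 in jaw-D for number 1, against 800.4 and 407.9 for number 2. In such whole-leaf RNA, fewer cells of a type and less RNA per cell cannot be told apart.

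Differences are jaw-D minus Columbia on the log2(signal + 16) scale, tested with limma over all probe sets with a Benjamini-Hochberg threshold of 0.05. The added 16 understates the change of a dim gene. A probe set's signal depends on its own probes, so signals are compared between arrays and not between genes.

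None of the 48 UGT genes passed the test, where 0.189% of all probe sets did (43 of 22746). The smallest adjusted p among members was 0.136, for UF3GT, and the smallest difference among the 43 called probe sets was 1.48 in size, above any member's. A difference of at least 1 in size was found in 2 of 48 members, UF3GT and UGT76E11, against 1.56% of all probe sets. At an unadjusted p under 0.05 there were 11 of 48 members (22.9%) against 13.0% of all probe sets. Of these, 7 were higher in jaw-D (14.6%, against 4.53% of all probe sets) and 4 were lower (8.33%, against 8.47%).

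Both jaw-D arrays lay above both Columbia arrays for 15 members (31.2%), a pattern found in 17.5% of all probe sets. Both lay below for 9 members (18.8%), against 26.5% of all probe sets, and the arrays overlapped for the other 24. Counts of this kind for smaller lists are descriptions, to be read against the shares of 17.5% and 26.5%. After quantile normalization these shares were 33.3% of members against 20.6% of all probe sets for the higher side and 16.7% against 21.1% for the lower side. The median difference was 0.17 over members and -0.04 over all probe sets. Without jaw-D array 1, the array with the high GAPDH ratio, the members' median was 0.0056, and the part of RNA quality in it was not tested.

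Many UGT probe sets were dim in these leaves. The mean signal was under 16 for 20 of 48 members (41.7%, against 19.6% of all probe sets), and 12 members read under 16 on every array. Among the 20 members whose mean signal reached the median of 77.45, the median difference was 0.24, against 0.01 for all probe sets of that brightness. In this brighter set 9 of 20 members had both jaw-D arrays higher (45%, against 23.6%) and 5 had both lower (25%, against 20.9%). The set was chosen by the mean of all 4 arrays, so a gene could enter it through 1 genotype. UGT73B1, among the 9, read 59.3 and 76.5 in Columbia and 80.2 and 104.7 in jaw-D, and so entered only through its jaw-D arrays. The median and counts of this set are therefore descriptions. The 28 dimmer members had a median of 0.0058, where all dimmer probe sets had -0.11.

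**Figure D1:**
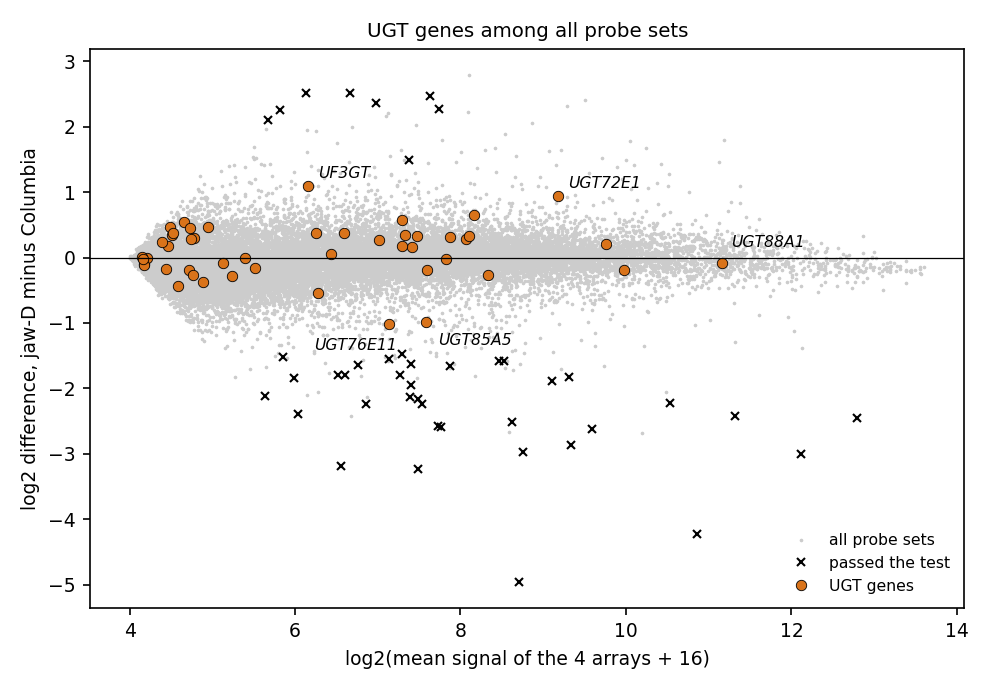
Log2 difference, jaw-D minus Columbia, against log2 of the mean signal of the 4 arrays plus 16, for all 22746 probe sets (grey), the 43 that passed the test (crosses) and the 48 UGT genes (orange circles). No UGT gene lies among the crosses, and UF3GT (1.09) and UGT76E11 (-1.01) have the largest differences of the family in each direction.

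The flavonoid and anthocyanin enzymes had 4 named members of the 7 listed, and 3 of the 4 were higher on both jaw-D arrays (17.5% of all probe sets were). UF3GT, described in RefSeq as a flavonoid 3-O-glucosyltransferase and known as the enzyme that adds xylose to anthocyanin glucosides, read 23.7 and 36.0 in Columbia and 75.8 and 85.9 in jaw-D. The genotypes did not overlap, and the mean went from 29.9 ± 8.70 to 80.8 ± 7.14 (SD, n = 2 arrays each). The log2 difference was 1.09 (SE 0.19, 95% interval 0.63 to 1.55), or 2.13-fold, with a limma adjusted p of 0.136. Its size rested on the number added, at 0.63 with a pseudocount of 64 and 1.43 with one of 1. It was the member with the smallest p and stood at rank 222 of 22746 probe sets by p. Where only probe sets at or above the 25th percentile of mean signal were tested, it passed with an adjusted p of 0.0388, the 1 call among the 27 members tested there (3.7%, against 1.31% of probe sets).

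UGT78D1, which adds rhamnose to flavonols, read 237.7 and 218.3 in Columbia and 288.7 and 291.5 in jaw-D. Its log2 difference was 0.33 (95% interval -0.03 to 0.69). UGT78D2, which adds glucose to flavonols and anthocyanidins, read 129.4 and 155.1 in Columbia and 186.4 and 178.7 in jaw-D, also with a log2 difference of 0.33 (95% interval -0.06 to 0.72). Neither passed the test, with adjusted p of 0.426 and 0.457 by limma, and neither genotype pair overlapped. UGT78D3, a flavonol arabinosyltransferase gene, was dim at 1.1 to 4.1 on the 4 arrays and its genotypes overlapped, with a difference of -0.11.

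The genes that make and regulate the flavonoid acceptors were covered by only 2 genes that the annotation names of 24 listed. Both had jaw-D above Columbia on all arrays (17.5% of all probe sets did). DFR, the dihydroflavonol reductase of the anthocyanin branch, read 36.4 and 55.0 in Columbia and 71.2 and 73.5 in jaw-D, a log2 difference of 0.53 (adjusted p = 0.338 by limma). 5MAT, a malonyltransferase gene that decorates anthocyanin glucosides, read 16.7 and 23.2 in Columbia and 37.0 and 39.9 in jaw-D, a log2 difference of 0.60 (SE 0.16, adjusted p = 0.252 by limma). Neither passed the test.

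Phenylpropanoid enzymes of the family had 6 named members of 8 listed, of which 2 were higher and 1 lower on both jaw-D arrays (17.5% and 26.5% of all probe sets were). UGT72E1, which glucosylates coniferyl and sinapyl aldehydes, read 372.5 and 385.4 in Columbia and 828.4 and 662.5 in jaw-D. Both jaw-D arrays lay well above the narrow Columbia pair, with a log2 difference of 0.94 (SE 0.17, 95% interval 0.52 to 1.36) and an adjusted p of 0.148. UGT72E2, whose product glucosylates the monolignol alcohols, read 61.3 and 92.5 in Columbia and 45.7 and 47.7 in jaw-D. This gene differed the other way, by -0.55 (SE 0.20, 95% interval -1.05 to -0.05, adjusted p = 0.349 by limma), and without Columbia array 2 the difference was -0.30.

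Within an array, the log2 ratio of UGT72E1 to UGT72E2 was 2.33 and 1.89 in Columbia and 3.77 and 3.41 in jaw-D. The ratio was therefore 1.49 higher in jaw-D on the log2 scale, and an exact two-sided permutation test gave p = 0.333, the smallest that 2 arrays against 2 allow. This pair was chosen after its values were seen, and 19 such ratios were computed, 18 of them between neighbours, with Benjamini-Hochberg adjusted p from 0.487 to 1.0 by the exact permutation test. UGT72E3, the third gene of the subfamily and a sinapyl alcohol glucosyltransferase gene, read 1.3 and 6.1 in Columbia and 18.2 and 2.1 in jaw-D. Its signals were dim and overlapped between genotypes. UGT72B3, the only member of subfamily 72B here, read 109.2 and 111.1 in Columbia and 175.4 and 167.9 in jaw-D, a log2 difference of 0.57 (SE 0.14, 95% interval 0.22 to 0.93, adjusted p = 0.229 by limma).

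The UGT84A genes encode enzymes that form glucose esters of hydroxycinnamates. UGT84A4 read 64.3 and 37.9 in Columbia and 69.5 and 69.0 in jaw-D, a log2 difference of 0.37 with no overlap that was 0.086 without Columbia array 2 and 0.66 without Columbia array 1. For UGT84A3 the signals were 215.8 and 207.9 in Columbia and 198.3 and 217.5 in jaw-D, and the difference was -0.03 (95% interval -0.39 to 0.34). UGT84A1 was dim, at 1.2 to 3.0, with a difference of -0.02 that turned to 0.03 after quantile normalization. HCT, which encodes a shikimate transferase of the same pathway and was the 1 named gene of 18 listed, had a difference of 0.04 and did not pass.

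**Figure D2:**
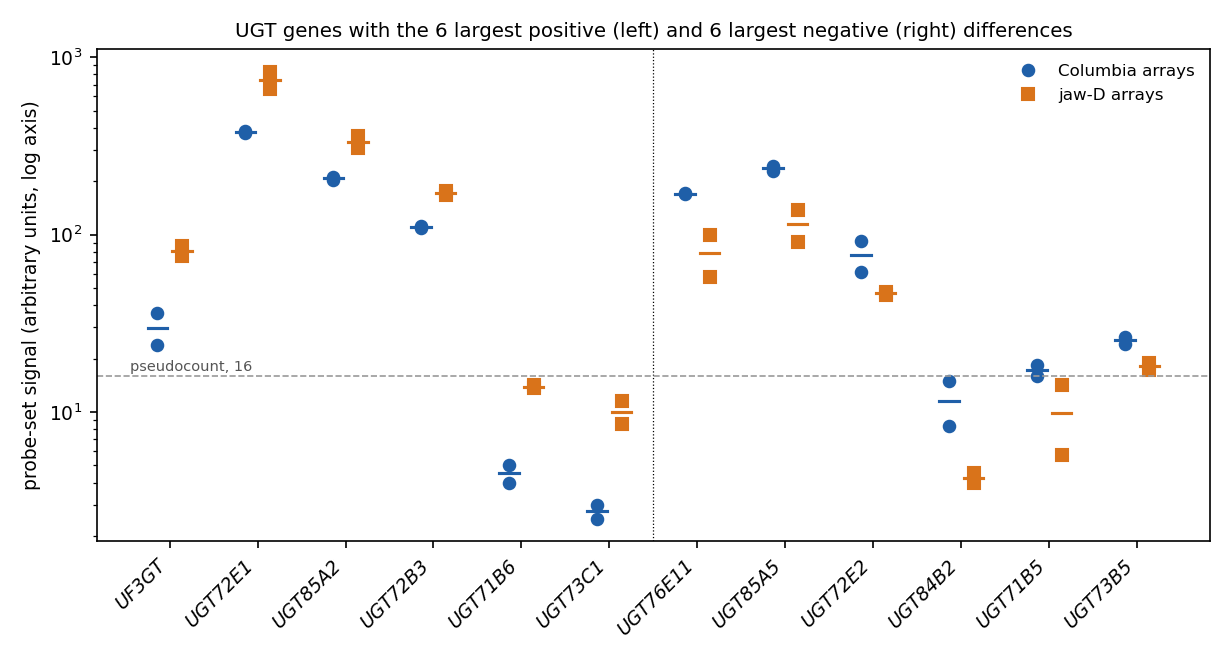
Probe-set signal on each array (log axis) for the 6 UGT genes with the largest positive and the 6 with the largest negative log2 difference among those whose genotypes do not overlap. Circles are Columbia arrays, squares are jaw-D arrays, and short lines are means of 2 arrays. UGT71B6, UGT73C1 and UGT84B2 lie wholly below the pseudocount of 16 (dashed line).

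None of the hormone-conjugating members passed the test. For cytokinin, both named genes of 3 listed, UGT76C1 and UGT76C2, were higher on both jaw-D arrays (17.5% of all probe sets were). Their enzymes glucosylate the cytokinin ring nitrogen. UGT76C1 read 114.9 and 88.8 in Columbia and 134.0 and 116.7 in jaw-D, a difference of 0.27 that was 0.11 without Columbia array 2 and 0.43 without Columbia array 1. UGT76C2 read 124.6 and 125.2 in Columbia and 139.5 and 188.6 in jaw-D, a difference of 0.34 that was 0.14 when jaw-D array 2 was left out and 0.54 when jaw-D array 1 was. Their 95% intervals, -0.17 to 0.71 and -0.11 to 0.79, both include 0.

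For abscisate, 3 genes of 4 listed were named, and 2 were higher on both jaw-D arrays (17.5% of all probe sets were). UGT71B6, an abscisate glucosyltransferase gene, read 4.0 and 5.0 in Columbia and 13.7 and 14.1 in jaw-D, a difference of 0.54 (SE 0.14, adjusted p = 0.244 by limma) that lies wholly under a signal of 16. With a pseudocount of 1 this difference was 1.44 and with one of 64 it was 0.19, so its size rests on the number added. UGT71C5, whose enzyme makes the glucose ester of abscisate, read 215.1 and 171.5 in Columbia and 259.1 and 227.5 in jaw-D, a difference of 0.31 (adjusted p = 0.521 by limma) that was 0.16 without Columbia array 2. UGT71B8, a close relative of UGT71B6, read 2.6 to 12.5 and overlapped between genotypes.

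For salicylate, 3 genes of 5 listed were named and the genotypes overlapped for all 3. UGT74F1, which makes salicylate glucoside, read 1.7 to 3.4 on the 4 arrays, and UGT76B1, which acts on salicylate and other immune signals, read 0.6 to 12.6. UGT76D1, which glucosylates dihydroxybenzoates, read 18.9 and 46.5 in Columbia and 34.8 and 18.6 in jaw-D. Differences of -0.01, -0.17 and -0.16 were within the spread between replicates, and that of UGT74F1 turned to 0.03 after quantile normalization. BSMT1, a salicylate methyltransferase gene and the 1 named of 9 listed for this hormone, had a difference of -0.15 and overlapped too.

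For auxin, 3 genes of 5 listed were named with a UGT number. UGT84B2 read 8.3 and 14.9 in Columbia and 4.0 and 4.5 in jaw-D, lower on both arrays but dim throughout, with a difference of -0.44 (SE 0.18, adjusted p = 0.381 by limma) that was -1.21 with a pseudocount of 1 and -0.15 with one of 64. UGT84B1, an indoleacetate glucosyltransferase gene beside it, read 14.4 and 2.4 in Columbia and 12.4 and 13.5 in jaw-D. UGT74D1, also active on auxins, read 245.4 and 202.2 in Columbia and 231.1 and 327.9 in jaw-D. The last 2 overlapped between genotypes, at differences of 0.29 each. The annotation also names IAGLU, which has no UGT number there and so is no member. Its mean signal was 150.3 and its difference 0.19 (adjusted p = 0.773 by limma). The 1 gene of the brassinosteroid list was not named.

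UGT74B1, the S-glucosyltransferase gene of glucosinolate synthesis, read 868.9 and 700.6 in Columbia and 1031.9 and 790.1 in jaw-D, and the genotypes overlapped at a difference of 0.21 (95% interval -0.29 to 0.71). UGT80B1, a sterol glucosyltransferase gene also known as TT15, read 330.4 and 344.3 in Columbia and 285.3 and 269.4 in jaw-D. Both jaw-D arrays were lower, by -0.27 on the log2 scale (95% interval -0.63 to 0.09), and the adjusted p was 0.505. USP, a UDP-sugar pyrophosphorylase gene and the 1 named of 24 listed for the supply of UDP-sugars, had a difference of 0.16 with overlapping arrays. The lists for cytokinin metabolism, abscisate metabolism and glucosinolate synthesis had 0 genes that the annotation names, and over all 7 pathway lists 0 of 5 named genes of 111 listed passed.

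The list of members linked to stress or flowering had 7 named of 11, with 1 higher and 2 lower on both jaw-D arrays, close to the shares of 17.5% and 26.5% over all probe sets. UGT76E11 read 168.6 and 171.9 in Columbia and 57.9 and 99.0 in jaw-D, the largest negative difference of the family. The Columbia arrays nearly coincided while the jaw-D arrays were apart, with a log2 difference of -1.01 (SE 0.24, 95% interval -1.60 to -0.43) and an adjusted p of 0.211 by limma. Leaving out jaw-D array 1 gave -0.70, and leaving out jaw-D array 2 gave -1.33. UGT73B5, linked to redox balance in pathogen responses, read 26.6 and 24.1 in Columbia and 18.9 and 17.2 in jaw-D, a difference of -0.28. UGT73B1 had 59.3 and 76.5 in Columbia and 80.2 and 104.7 in jaw-D, a difference of 0.37 that was 0.20 without jaw-D array 2. UGT87A2, known to influence flowering time, read 159.4 and 223.8 in Columbia and 154.6 and 172.8 in jaw-D, with overlap. The dim genes UGT73B4, UGT73D1 and UGT76E12 overlapped, at 0.9 to 4.6, 2.9 to 17.8 and 2.2 to 11.6.

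Number group 85 held the widest contrast between 2 members that lie side by side. UGT85A2 read 212.2 and 202.1 in Columbia and 360.1 and 307.2 in jaw-D, a difference of 0.64 (SE 0.16, 95% interval 0.26 to 1.03). UGT85A5, the next gene on chromosome 1, read 229.5 and 243.7 in Columbia and 137.7 and 90.5 in jaw-D, a difference of -0.98 (SE 0.21, 95% interval -1.51 to -0.46). Adjusted p were 0.223 and 0.193 by limma, and both pairs of arrays were apart, in opposite directions. Within an array the log2 ratio of UGT85A2 to UGT85A5 was -0.11 and -0.25 in Columbia and 1.29 and 1.60 in jaw-D, so the ratio was 1.62 higher in jaw-D (exact two-sided permutation p = 0.333, the smallest possible). The flanking genes UGT85A7 and UGT85A3 overlapped between genotypes, at differences of 0.05 and 0.00, and UGT85A4, elsewhere on chromosome 1, had 0.18.

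When the test was run on the probe sets with a mean signal of 77.45 or more alone, 3 of the 20 members there passed (15%, against 2.56% of probe sets). They were UGT72E1, UGT85A5 and UGT76E11, with adjusted p of 0.0204, 0.0342 and 0.0427. UF3GT was below that brightness and was not in that test. Their differences were the same as before, since only the set of genes tested and the estimate of spread changed.

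**Figure D3:**
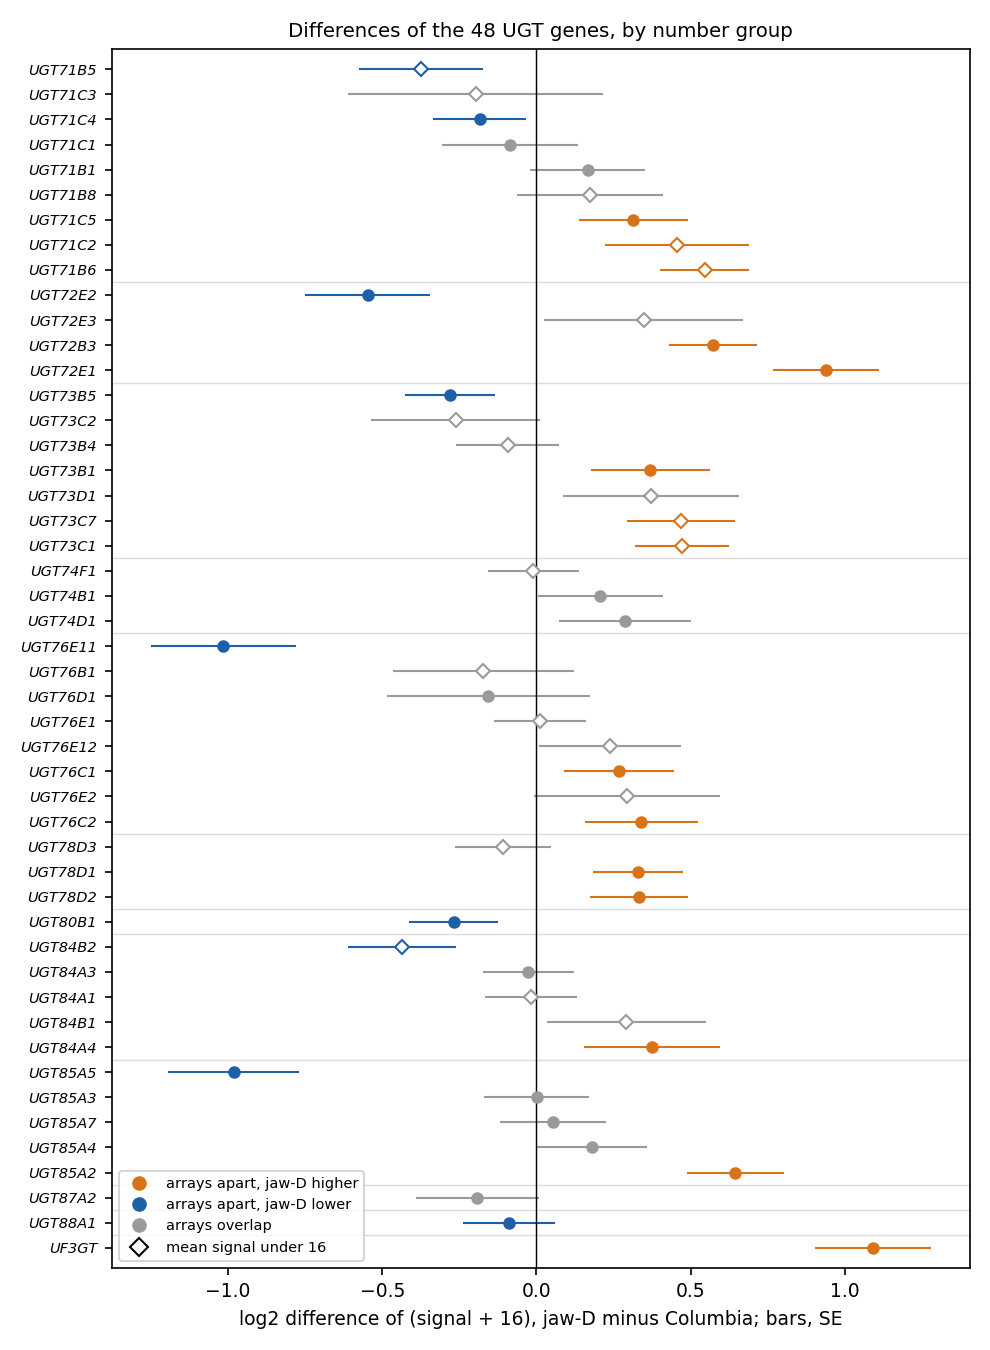
Log2 difference, jaw-D minus Columbia, with its SE for each of the 48 UGT genes, ordered by number group (thin lines part the groups) and by size within it. Orange marks 15 genes with both jaw-D arrays higher, blue 9 with both lower, grey 24 that overlap, and open diamonds the 20 genes with a mean signal under 16.

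Number group 71 had 9 members, with 3 higher and 2 lower on both jaw-D arrays (17.5% and 26.5% of all probe sets were) and differences from -0.37 to 0.54. UGT71B5 had the lowest of these differences, at 18.3 and 16 in Columbia and 5.7 and 14.1 in jaw-D, and its value was -0.14 when jaw-D array 1 was left out and -0.61 when jaw-D array 2 was. UGT71C4 read 1017.0 and 1093.3 in Columbia and 971.0 and 883.7 in jaw-D, a difference of -0.18 (95% interval -0.56 to 0.19). UGT71C2 was dim at 10.1 and 2.9 in Columbia and 19.3 and 10.3 in jaw-D, with a difference of 0.46. UGT71B1, UGT71C1 and UGT71C3 overlapped, at 0.17, -0.09 and -0.20.

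Number group 73 had 7 members, 5 of them with a mean signal under 16. UGT73C1, whose product can glucosylate cytokinins in vitro, read 3.0 and 2.5 in Columbia and 8.5 and 11.6 in jaw-D, a difference of 0.47 that was 0.15 with a pseudocount of 64 and 1.55 with one of 1. UGT73C7 read 9.9 and 9.8 in Columbia and 15.7 and 24.3 in jaw-D, also 0.47. Both were thus higher on both jaw-D arrays at signals near the bottom of the range. UGT73C2 overlapped, at 6.1 to 22.2.

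Of 8 members in number group 76, 2 were higher and 1 lower on both jaw-D arrays (17.5% and 26.5% of all probe sets were), and UGT76E1 and UGT76E2 were dim and overlapped, at 1.1 to 2.7 and 5.6 to 24.1. UGT88A1, the 1 member of group 88, read 2229.3 and 2478.0 in Columbia and 2217.4 and 2199.4 in jaw-D. Its difference was -0.09 (95% interval -0.46 to 0.28). Groups 72, 73 and 78 had median differences of 0.46, 0.37 and 0.33, and groups 74, 71 and 76 had 0.21, 0.17 and 0.13. Group 85 had 0.05 and group 84 had -0.02, each of these medians over 3 to 9 genes. The median was 0.17 over all members and -0.04 over all probe sets.

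In all, 31 of the 48 members lay in 13 runs of neighbours, taken as members at most 5 protein-coding genes apart in the order of the reference. Near-identical copies can share a transcript's signal, although every member's probe set was paired with 1 gene. Differences within a run ranged from 0.07 apart, for UGT76C2 and UGT76C1, to 1.62 apart in the UGT85A run. The run of UGT76E12 and UGT76E11 was 1.25 apart, but UGT76E12 was dim. The dim run of UGT73C1 and UGT73C2 was 0.73 apart, and that of UGT84B2 and UGT84B1 was 0.73 apart. In the run of UGT71C5, UGT71C4 and UGT71C3, the first was higher and the second lower on both jaw-D arrays, and the log2 ratio of UGT71C5 to UGT71C4 went from -2.16 and -2.56 to -1.84 and -1.89.

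**Figure D4:**
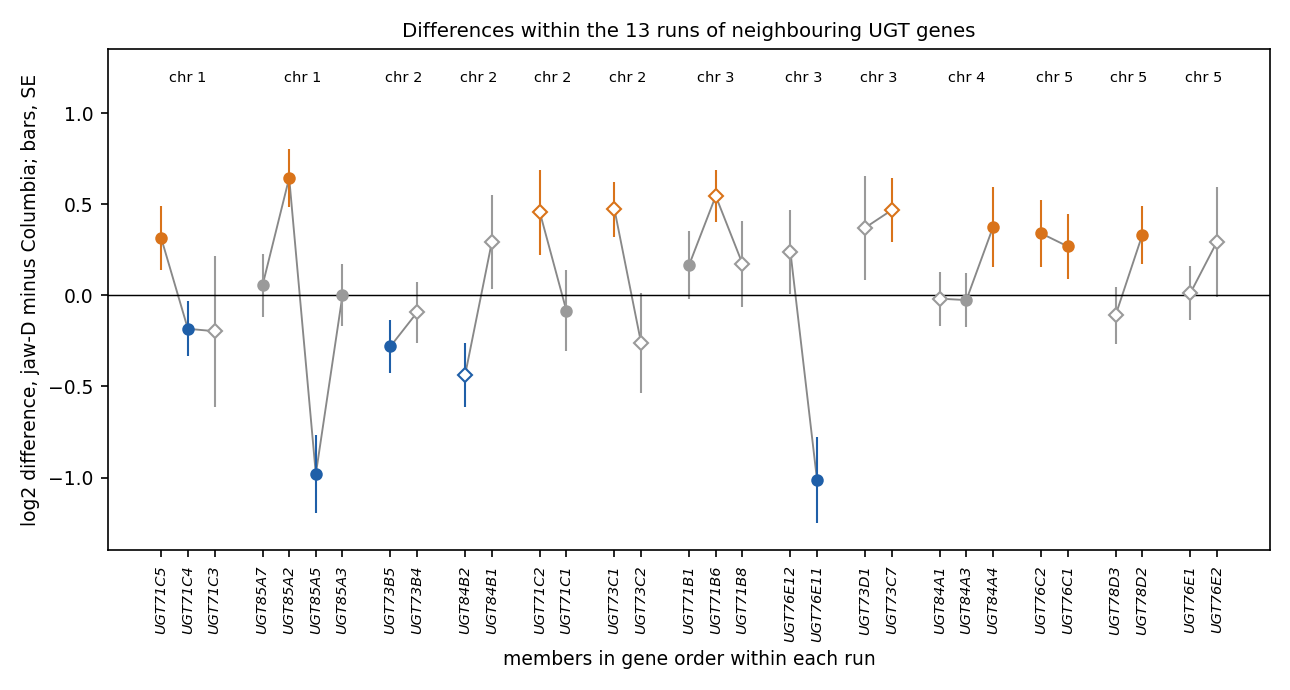
Log2 difference, jaw-D minus Columbia, with its SE for 31 UGT genes in 13 runs of neighbours, drawn in gene order within each run and labelled by chromosome. Colours and diamonds mark array overlap and a mean signal under 16 (orange, both jaw-D arrays higher, blue, both lower, grey, overlap, open diamond, dim). The UGT85A run on chromosome 1 holds the widest span, from -0.98 to 0.64.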

How the data were processed

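The deposited values are probe-set intensities, taken to be linear because they are never negative and reach 11151 or more on each array. With 2% of rows trimmed at each end, every array had a mean near 200.02, so the authors had scaled the arrays alike. How the signals were summarised is not given in the sources used here. In all, the table has 22810 rows, of which 64 array controls were left out, and 0 columns were left unassigned. It carries no detection calls, so depth and background of single probe sets are unknown and the number of arrays limits precision. Names came from the platform annotation and, by gene identifier, the TAIR10.1 reference, used only for names and gene order. Signals were taken as log2(signal + 16) and fitted with limma 3.58.1 in R 4.3.3 (2 residual and 3.76 prior degrees of freedom, two-sided, Benjamini-Hochberg over 22746 probe sets, threshold 0.05). The fit was tested on simulated data, with added changes larger than any member's difference. That test therefore cannot show how often changes of the members' size would be called. Intervals are 95% and use moderated t values.

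Genes named with values are those of the role lists, the 6 largest differences each way among genes with genotypes apart, the 5 highest signals and the named pathway genes; other members complete the family. The members, lists and rule were chosen with earlier results of these data known. Alternatives were quantile normalization, median centring, pseudocounts of 1 and 64, 2 brightness filters, trended and robust moderation, the replicate block and leaving out each array. The deviations of arrays with the same number correlated at -0.0743 and the labels give no meaning for a number, so the numbers were not taken to pair the arrays, although in each genotype the 25S rRNA control read higher for number 1.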

Additional observations from a re-analysis of the deposited data

Results flagged for a closer look

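A probe set that the annotation shares between UGT71D1 and AT2G29710 stood outside the comparison because it names 2 genes. It was flagged as data left out of the comparison of members. It read 49.6 and 49.7 in Columbia and 127.5 and 100.9 in jaw-D, a jaw-D mean of 114.2 against 49.65. The log2 difference was 0.98 (SE 0.17, adjusted p = 0.134 by limma), which did not pass, and which of the 2 genes gave the signal was not tested. Other shared probe sets of the family went the other way. Differences were -0.78 for that of UGT73B2 and UGT73B3, with overlap, and -0.38 for that of AT1G73885 and UGT89B1.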

How the results depend on the processing

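Of 37 named members, 25 kept their direction in every alternative that tested them (the brightness filters drop dimmer genes). The 43 calls over all probe sets became 103 with an intensity trend, 224 and 291 (174 lower) at or above the 25th percentile and the median of mean signal, where fewer were tested, and 66 with the replicate block. They became 0 with a pseudocount of 1 (2538 at an unadjusted p under 0.05) and from 0 to 0 without each array (1978 to 2492). The count of UGT calls became 1 and 3 under the 2 filters and was 0 in each other alternative by limma, with 7 to 13 members at an unadjusted p under 0.05; the replicate block also gave 0. The members' median of 0.17 became 0.24 at or above the median mean signal, 0.19 with median centring and with a pseudocount of 1, 0.070 with one of 64, and from 0.0056 to 0.17 without 1 array; the cause was not tested. With the 3 genes that carry a UGT name only as a synonym, and over members with a mean of at least 16, both chosen after seeing the data, it was 0.17. The tests with quantile normalization of array overlap were also added after seeing the data. No member had a second probe set, so that alternative gave no value.

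Signs turned for 12 members, none of which passed the test. With median centring UGT74F1 had 0.011 and UGT84A1 0.0032, and with quantile normalization 0.034 and 0.026. Without 1 array, the difference ran UGT71B8 from -0.13 to 0.48, UGT72E3 from -0.11 to 0.81, UGT73B4 from -0.24 to 0.049, UGT73D1 from -0.049 to 0.79. It ran UGT74F1 from -0.076 to 0.056, UGT76B1 from -0.52 to 0.18, UGT76D1 from -0.58 to 0.26, UGT76E12 from -0.061 to 0.54. It also ran UGT84A1 from -0.090 to 0.053, UGT84A3 from -0.088 to 0.036, UGT84B1 from -0.071 to 0.65, UGT87A2 from -0.42 to 0.033. Without jaw-D array 2, UGT76B1 had 0.091 and UGT76D1 0.12. With no detection calls, a dim signal has no bound of its own.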

Other observations

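Of the 3 genes that carry a UGT name only as a RefSeq synonym, 1 was higher on both jaw-D arrays (17.5% of all probe sets were). SGT, a sterol glucosyltransferase gene with the synonym UGT80A2, read 191.3 and 188.0 in Columbia and 232.9 and 237.5 in jaw-D, a log2 difference of 0.29 (95% interval -0.06 to 0.64), whereas UGT80B1, the other sterol enzyme gene, had -0.27. GT72B1, with the synonym UGT72B1 and a role in monolignol and xenobiotic glucosylation, read 464.8 and 467.3 in Columbia and 450.3 and 500.3 in jaw-D, a difference of 0.03 with overlap. AT5G54010, with the synonym UGT79B6, was dim, at 1.1 to 15.1. None of the 3 passed the test.

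Of the probe sets shared with a second gene, that of UGT73B2 and UGT73B3 read 16.7 and 54.0 in Columbia and 7.3 and 17.2 in jaw-D, with overlap. That of AT1G73885 and UGT89B1 read 248.5 and 260.8 in Columbia and 231.3 and 158.4 in jaw-D, a difference of -0.38 (adjusted p = 0.506 by limma).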
